A study of Mus musculus with 2 samples.

Results

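The small leucine-rich proteoglycans are secreted matrix proteins whose core is a series of leucine-rich repeats. The 10 genes described here were taken by symbol from the deposited count table, which has 44792 genes, and all 10 had a row. They are decorin (Dcn), biglycan (Bgn), asporin (Aspn), fibromodulin (Fmod), lumican (Lum), osteomodulin (Omd), prolargin (Prelp), keratocan (Kera), osteoglycin (Ogn) and Ecm2, a matrix protein with related repeats. Both libraries were total RNA of OCCM-30 cells, described as wild-type, an immortalized mouse line with cementoblast traits. Cementoblasts form the mineralized layer that covers tooth roots. The compressed library came from OCCM-30 cells put under compressive force, and the control library from OCCM-30 cells labelled as control. Nothing in the labels says how large or long the force was, and each group has 1 library, so no difference below has a replicate check and no p-value was computed.

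These proteins bind collagen fibrils and help to set fibril diameter and spacing, and many carry chondroitin, dermatan or keratan sulfate chains. Several also bind growth factors of the TGF-beta family. In teeth and bone the family is known for its part in the organic matrix that is laid down before mineral, and asporin was also named periodontal ligament-associated protein.

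The libraries held 24296292 counts (compressed) and 25049919 counts (control), and total counts were scaled to trimmed mean of M-values (TMM) sizes to give CPM, the count divided by the scaled library total and multiplied by 1000000. Ratios are of the compressed over the control library, with a prior count of 0.5 added to both, and their exact 95% binomial intervals cover counting error only, since reads are not independent molecules and the spread between cultures was not measured. Calls of higher or lower required of a gene 1 CPM or more in at least 1 of the libraries, a difference of 2-fold or more, and an interval without 1 in it. Of 8 osteoblast and cementoblast markers, 5 passed that minimum and 0 were called, with 2 intervals above 1 and 1 below, and the list summed to 8178 CPM under compression and 7982 CPM in the control. Col1a1, the type I collagen chain, made up most of that sum, at 7758 CPM against 7535 CPM (188419 counts against 188837). Spp1 had 4769 counts against 4460, Alpl had 859 against 817, and Sp7 had 99 against 98. Runx2, the osteoblast transcription factor, had 4416 against 5788, a ratio of 0.787 (0.757 to 0.819). By contrast Ibsp, a defining cementoblast marker, had 0 counts in both libraries and Bglap, the osteocalcin gene, had 12 against 11. Of 6 tendon and ligament markers, 4 passed the minimum and all 4 had intervals that included 1. They were Mkx (687 counts against 683), Fbln5 (662 against 652), Postn (547 against 527) and Scx (408 against 388). The list summed to 94.9 CPM under compression and 89.8 CPM in the control, with Tnmd and Thbs4 at 0 counts in both. Chondrocyte markers summed to 23.1 CPM against 28.0 CPM, with 3 of 6 above the minimum, a median log2 ratio of -0.31 and Col9a1 and Matn1 at 0 counts in both. Of those 3, Sox9 at 0.804 (0.708 to 0.912) and Matn3 at 0.510 (0.284 to 0.868) had intervals below 1. Col2a1 had 98 counts against 90, and the interval of its ratio included 1. Of 8 markers of blood, endothelial, epithelial and fat cells, 2 passed the minimum. These were Csf1r (39 counts against 44) and Pecam1 (21 against 32). The list summed to 3.13 CPM against 4.11 CPM, and Ptprc and Epcam had 0 counts in both libraries. Over all genes tested, 3.06% were called higher and 0.929% lower. The part of these markers in the results below was not tested.

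Reads of the family came mostly from osteoglycin, and the libraries differed by small amounts, in opposite directions for different genes. Of the 10 genes, 6 reached 1 CPM in either library, 2 had a few counts and 2 had none. Among those 6, 0 were called higher and 0 lower. Across all 14001 genes above the minimum, 3.06% were called higher and 0.929% lower, so a count of 0 among 6 genes lies close to that background. The interval lay above 1 for Dcn and below 1 for Ogn, and it included 1 for the other 4. Over all tested genes 26.3% of intervals lay above 1, 28.6% below it and 45.1% included it. Among genes with a mean of 1 to 5 CPM, where Dcn, Aspn, Fmod and Omd lie, 18.3% of intervals lay above 1, 11.5% below. The median log2 ratio of the 6 genes was -0.22, against -0.01 for all genes tested. It was -0.02 at a minimum of 5 CPM, which 2 of the genes pass.

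**Figure D1:**
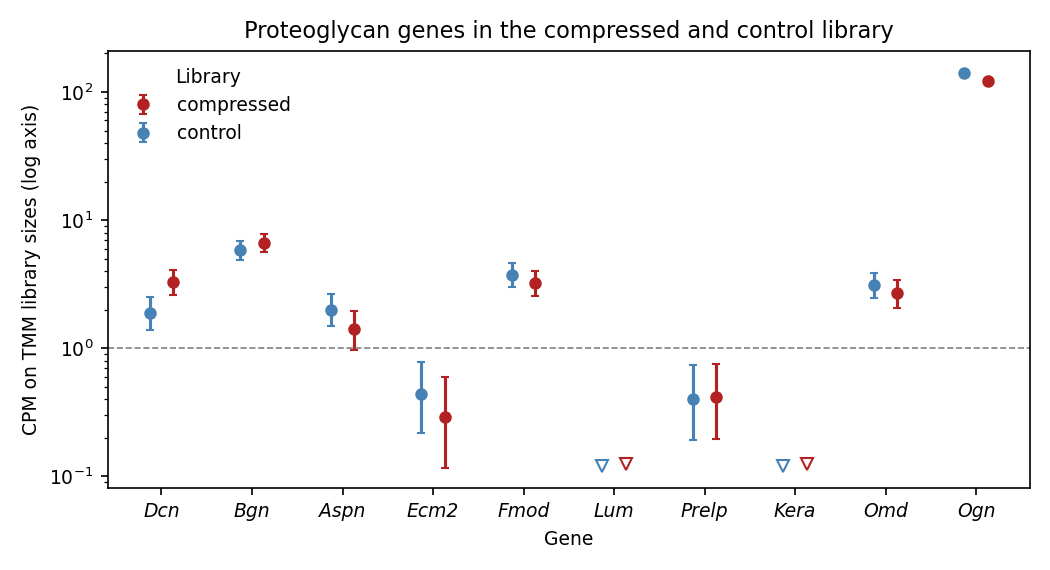
CPM of each gene (log axis) in the compressed library (red) and the control library (blue). Bars are exact 95% Poisson intervals for counting error, the dashed line is the minimum of 1 CPM, and open triangles mark genes with 0 counts, drawn without bars at the value of 3 counts. Ogn stands at 122 and 142 CPM, and Lum and Kera have no counts.

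Decorin and biglycan are the class I members that carry chondroitin or dermatan sulfate chains. Decorin binds type I collagen and TGF-beta. Dcn had 80 counts under compression and 47 in the control, or 3.29 CPM against 1.88 CPM. The compressed library was the higher one, with a ratio of 1.75 (1.21 to 2.57), below the limit of 2. This was the highest ratio among the 6 genes, and it stood inside the central 90% of log2 ratios (-0.82 to 1.17) of the 2871 genes with a mean of 1 to 5 CPM, 89.4% of which had a lower ratio.

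Biglycan is needed for normal bone mass in mice and can signal through Toll-like receptors once it is released from the matrix. Bgn had 162 counts (6.67 CPM) under compression and 146 counts (5.83 CPM) in the control. Its ratio was 1.14, and the interval of 0.910 to 1.44 excludes a change of 2-fold in either direction as far as counting error goes.

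Asporin belongs to the same class by sequence but carries an aspartate stretch and no chondroitin sulfate chain, and it binds BMP and TGF-beta ligands. Aspn had 34 counts (1.40 CPM) under compression and 50 counts (2.0 CPM) in the control. The control library was the higher one here, with a ratio of 0.705 and an interval of 0.440 to 1.11 that included 1. Summed over the 3 class I genes, counts were 276 against 243, a ratio of 1.17 (0.983 to 1.40), so the higher Dcn and lower Aspn values left a sum whose interval included 1.

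Of the class II genes, which mostly carry keratan sulfate, fibromodulin and osteomodulin were measurable. Fibromodulin binds fibrillar collagen at a site shared with lumican. Fmod had 78 counts (3.21 CPM) against 94 counts (3.75 CPM), a ratio of 0.857 (0.626 to 1.17). Osteomodulin, also called osteoadherin, is made by osteoblasts and odontoblasts and binds hydroxyapatite. Omd had 65 counts (2.68 CPM) against 78 counts (3.11 CPM), a ratio of 0.861 (0.609 to 1.21). Both were slightly higher in the control library, by less than counting error can resolve at these depths.

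The rest of class II was barely present. Prolargin, which binds collagen and heparan sulfate near basement membranes, had 10 counts in each library (0.412 CPM against 0.399 CPM). The interval of the Prelp ratio ran from 0.385 to 2.76, so a change of 2-fold in either direction was not detectable at this depth. Lumican and keratocan, the keratan sulfate proteoglycans best known from the cornea, had 0 counts in both libraries. A count of 0 allows up to 3 counts, so Lum and Kera could each reach 0.124 CPM under compression and 0.120 CPM in the control. Summed over the 5 class II genes, counts were 153 against 182, a ratio of 0.868 (0.695 to 1.08).

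Osteoglycin, also called mimecan, is a class III member first purified from bone. Ogn had 2956 counts (122 CPM) under compression and 3567 counts (142 CPM) in the control, where it was higher. Its ratio of 0.855 (0.814 to 0.898) is 1.17 times lower (1.11 to 1.23). That ratio is almost the same as those of Fmod and Omd, whose intervals included 1 because they rest on far fewer reads. Among the 4943 genes with a mean of at least 50 CPM, where reads are plentiful, 72.0% of intervals excluded 1, and 17.8% of these genes had a lower ratio than Ogn.

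Ogn took 87.1% of the reads counted for the 10 genes under compression and 89.1% in the control. These are shares of reads and not of transcripts, since transcript lengths were not used here. Summed counts of all 10 genes were 3392 against 4003, a ratio of 0.874 (0.835 to 0.916). Without Ogn the other 9 genes summed to 436 counts in each library, a ratio of 1.03 (0.902 to 1.18). The lower sum thus rested on Ogn.

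**Figure D2:**
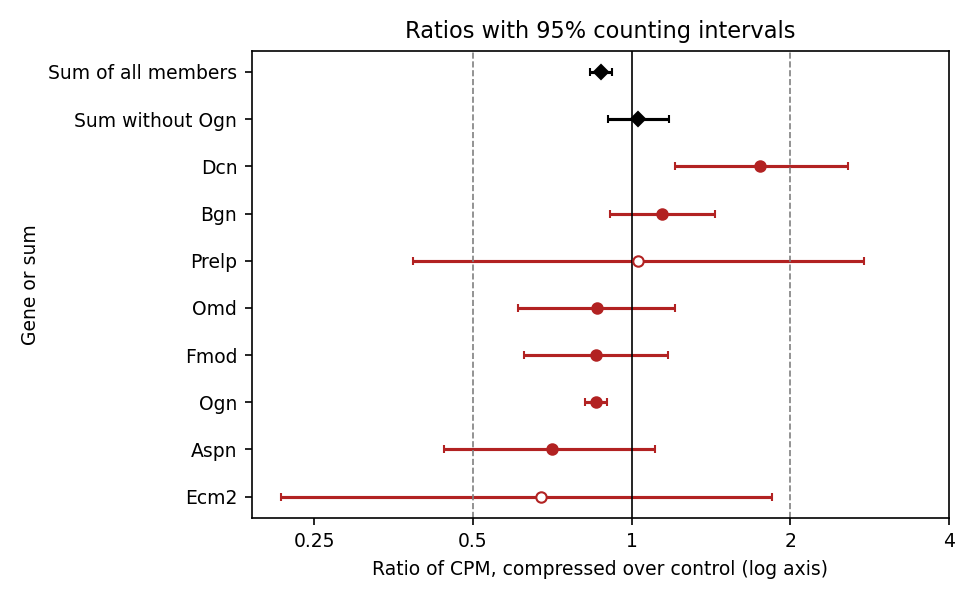
Ratio of CPM, compressed over control (log axis), for the 8 genes with counts and for the sums, with exact 95% binomial intervals. Open circles are genes below 1 CPM in both libraries, diamonds are sums, and dashed lines mark the limits of 0.5 and 2. The interval of Dcn lies above 1 and that of Ogn below 1, and the sum without Ogn is at 1.03.

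Ecm2, whose repeats resemble those of decorin, had 7 counts (0.288 CPM) against 11 counts (0.439 CPM). The ratio was 0.672 (0.216 to 1.85), and the gene stayed below the minimum in both libraries.

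These ratios were set beside those of all genes tested in this pair of libraries. All 6 measurable genes stood within the central 90% of log2 ratios of genes with similar mean CPM. For Bgn that range was -0.49 to 0.66 over 5874 genes with a mean of 5 to 50 CPM, and for Ogn it was -0.39 to 0.41.

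**Figure D3:**
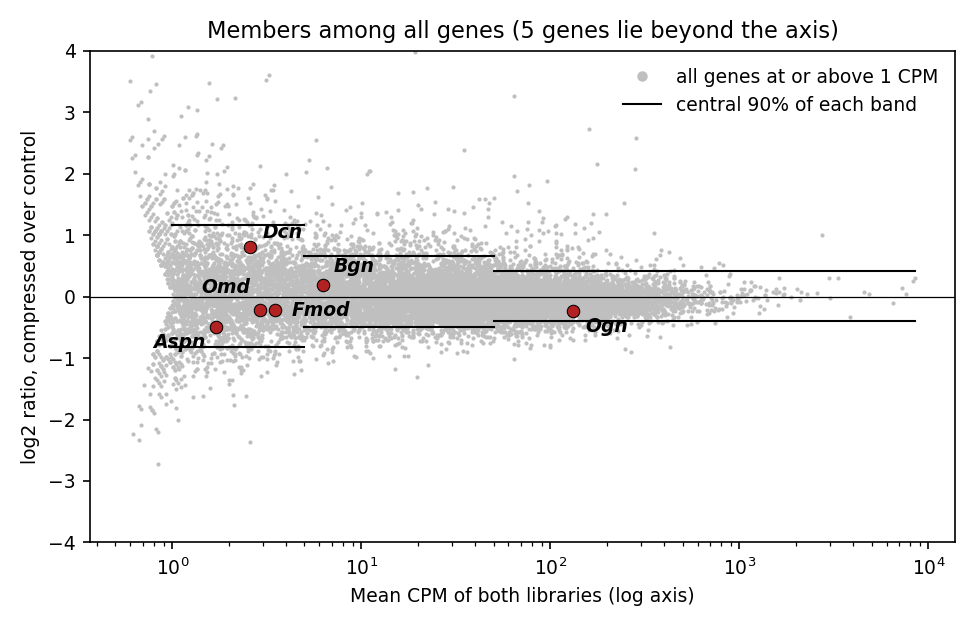
Log2 ratio against mean CPM (log axis) for the 14001 genes with at least 1 CPM in either library, with the 6 measurable proteoglycan genes in red. Black lines bound the central 90% of genes in each band of mean CPM, and 5 genes lie beyond the axis. Dcn is at 0.81, Bgn at 0.19 and Ogn at -0.23, all between the lines.

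Comparing genes of the family with each other needs no library scaling, because the scaling cancels in a ratio of ratios. Of the 15 pairs of measurable genes, 5 had a conditional 95% interval that excluded 1, with no adjustment over the pairs. Pairs of other genes were not compared, so whether 5 of 15 is many for these libraries is not known. Of those 5 pairs, 4 involve Dcn, the gene with the highest ratio. The ratio of Dcn was 2.05 times that of Ogn (1.41 to 3.02), 2.49 times that of Aspn (1.37 to 4.59), 2.05 times that of Fmod (1.25 to 3.37) and 2.04 times that of Omd (1.22 to 3.43). The fifth pair was Bgn over Ogn, at 1.34 (1.06 to 1.70). Dcn and Bgn, the chondroitin or dermatan sulfate carriers, differed from each other by 1.53, with an interval of 0.984 to 2.40 that included 1. In the other direction, Fmod and Omd each had nearly the ratio of Ogn, at 1.00 (0.729 to 1.37) and 1.01 (0.709 to 1.42) times its value. The 4 intervals with Dcn all reuse its 80 and 47 counts, so they are not separate pieces of support. They cover counting error only, and the spread between cultures was not measured.

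Of the 10 genes, 9 lie in 3 runs on chromosomes 1, 10 and 13, and Bgn lies alone on chromosome X at 73483601 to 73495936 (GRCm38, positions from RefSeq, as for all positions here). The chromosome 10 run spans 134 kb with Dcn (97479500 to 97518163), Lum (97565501 to 97572703) and Kera (97606962 to 97613688). Dcn had reads in both libraries while its neighbours Lum and Kera had none, and neither did Epyc, the next gene of the family, 30380 bases further on. The lncRNA 4930473O22Rik, between Lum and Kera, had 0 counts as well. The chromosome 1 run spans 138 kb with Prelp (133910304 to 133930102) and Fmod (134037254 to 134048280). Optc, another family member 616 bases from Prelp, had 9 counts against 11. Btg2, an antiproliferative gene on the far side of Fmod, had 188 against 135, a ratio of 1.44 (1.15 to 1.81). The pseudogene Gm18970 between Prelp and Fmod had 0 counts against 1.

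The chromosome 13 run holds Ecm2 (49504810 to 49532789), Aspn (49544443 to 49567565), Omd (49582462 to 49592612) and Ogn (49608015 to 49624501) within 120 kb. All 4 had ratios below 1, from 0.672 for Ecm2 and 0.705 for Aspn to 0.861 for Omd and 0.855 for Ogn, but of these 4 intervals only that of Ogn excluded 1, and Ecm2 lay below the minimum. The whole run lies inside the span of Cenpp (49464025 to 49652950), a centromere protein gene whose promoter RefSeq places on the opposite strand. Cenpp had 102 counts and 94 counts, and the interval of its ratio of 1.12 began at 0.838 and included 1. Without a known strand setting, reads of Cenpp and of the genes inside it could not be told apart wherever exons overlap. Exon positions were not compared, so how far this touches the counts of these genes or of Cenpp is not known. Both flanking genes had intervals below 1, as did 26.4% of all genes with a mean of 5 to 50 CPM, the range they lie in. Whether the locus plays a part was not tested. Ippk, an inositol phosphate kinase gene, had a ratio of 0.872 (0.779 to 0.976), and Nol8, a nucleolar protein gene, had 0.735 (0.669 to 0.806).

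**Figure D4:**
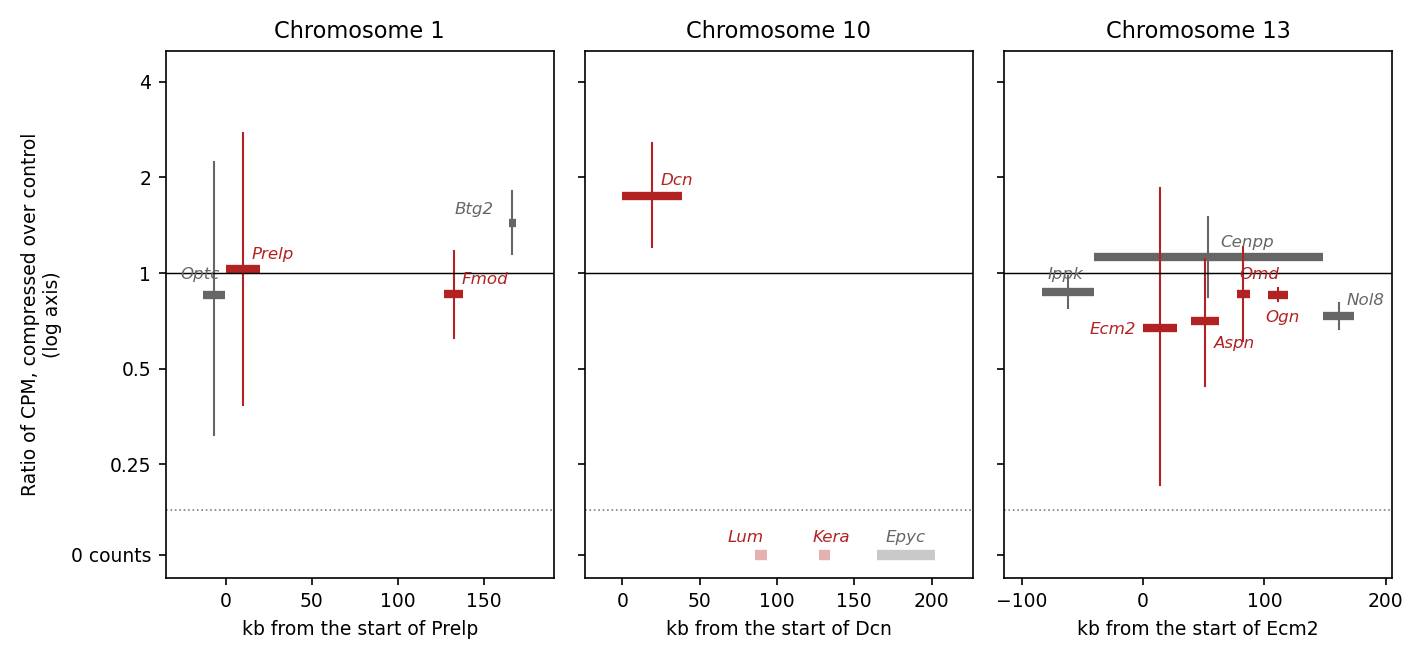
Ratio of CPM, compressed over control (log axis), against distance in kb from the start of the first proteoglycan gene of each run. Thick bars give the span of each gene, red for the proteoglycan genes and grey for neighbouring protein-coding genes, thin lines are 95% counting intervals, and genes below the dotted line had 0 counts in both libraries. On chromosome 13 the 4 red bars lie below 1 and Cenpp, which spans them, lies at 1.12.

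The sequences before the annotated starts of these 4 neighbours are shown because the genes share a locus and a direction and yet differ widely in their reads. Each is the 250 bases upstream of the RefSeq start on the plus strand of GRCm38.p6, at chr13:49504560-49504809 for Ecm2, chr13:49544193-49544442 for Aspn, chr13:49582212-49582461 for Omd and chr13:49607765-49608014 for Ogn. Capitals mark matches on either strand to 5 motifs, and overlapping matches run together. The TATA box was searched as TATAAA. The CCAAT box was searched by its letters. The core of hypoxia response elements was searched as ACGTG and, in its other form, as GCGTG. The core of RUNX sites was searched as TGTGGT. AP-1 sites were searched as TGANTCA.
Ecm2: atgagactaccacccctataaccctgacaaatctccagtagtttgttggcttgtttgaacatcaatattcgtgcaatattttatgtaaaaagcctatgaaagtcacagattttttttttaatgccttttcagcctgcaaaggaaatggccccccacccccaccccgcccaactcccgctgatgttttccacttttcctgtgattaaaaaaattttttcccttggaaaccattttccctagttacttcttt
Aspn: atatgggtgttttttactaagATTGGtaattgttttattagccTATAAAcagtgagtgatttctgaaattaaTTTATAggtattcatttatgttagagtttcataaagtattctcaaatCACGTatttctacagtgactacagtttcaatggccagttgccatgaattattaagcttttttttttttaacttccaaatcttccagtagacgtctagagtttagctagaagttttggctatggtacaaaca
Omd: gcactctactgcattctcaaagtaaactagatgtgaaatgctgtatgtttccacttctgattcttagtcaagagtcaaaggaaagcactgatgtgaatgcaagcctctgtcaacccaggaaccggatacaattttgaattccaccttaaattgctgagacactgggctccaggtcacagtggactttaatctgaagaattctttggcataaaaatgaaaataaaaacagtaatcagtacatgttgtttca
Ogn: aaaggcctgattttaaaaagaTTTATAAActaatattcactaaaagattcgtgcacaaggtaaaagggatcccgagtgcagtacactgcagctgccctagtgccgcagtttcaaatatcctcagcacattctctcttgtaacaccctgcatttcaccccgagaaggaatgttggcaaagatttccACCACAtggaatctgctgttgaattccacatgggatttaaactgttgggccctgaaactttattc

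Ecm2 and Omd held none of these letters in this window. Ogn held the TATA motif on both strands in overlapping places, which begin 227 and 229 bases before the start. It also held the RUNX core on the minus strand, which begins 65 bases before the start. Aspn held the TATA motif on each strand, beginning 207 and 178 bases before the start. It also held a CCAAT box at 229 bases and a hypoxia core at 131 bases. Whether any of these motifs acts was not tested. The TATA motif occurred in 12.4%, the CCAAT box in 33.8%, either hypoxia core in 38.6%, the RUNX core in 14.0% and the AP-1 motif in 6.75% of the same 250-base window of all 32851 RefSeq promoters. Of the 8 genes of the family with a promoter entry (all but Dcn and Lum), 2 held the TATA motif, 3 the CCAAT box, 2 a hypoxia core, 1 the RUNX core and 0 the AP-1 motif. The CCAAT box was in Prelp, Kera and Aspn. The Prelp window (chr1:133921402-133921651) lies inside the gene span given above, and most of the Kera window (chr10:97606955-97607204) does too. The chromosome 13 windows were poor in G and C, at 40.0% for Ecm2, 30.0% for Aspn, 38.4% for Omd and 42.0% for Ogn, against a median of 52.4% over all promoters and 64.4% for Bgn. Whether OCCM-30 cells start transcription at these annotated sites was not measured.

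Other members of the wider leucine-rich repeat family were read alongside. Of 8 such genes, 2 passed the minimum and 0 were called. Over all genes tested, 3.06% were called higher and 0.929% lower, so 0 calls say little here or in the lists below. Podnl1, a podocan-like gene, had 1531 counts against 1591, a ratio of 0.993 (0.925 to 1.07). Tsku, the secreted BMP and Wnt modulator tsukushi, had 941 against 767, a ratio of 1.27 (1.15 to 1.39). Among genes with a mean of 5 to 50 CPM, as Tsku has, 26.7% of intervals lay above 1. Epyc and Chad had 0 counts in both libraries.

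Chondroitin and dermatan sulfate chains are built on a xylose linker, while the keratan sulfate chains of class II members are attached to asparagine without it. None of the enzyme genes listed for either kind of chain was called. In the linker and chain start list, 6 of 7 genes passed the minimum, with 2 intervals above 1 and 2 below, and a median log2 ratio of 0.02. Xylt2, which adds the xylose that starts a chain, had the highest ratio at 1.43 (1.32 to 1.54), from 1135 control counts to 1568. B3galt6, which adds a galactose of the linker, had the lowest at 0.643 (0.545 to 0.756), with 244 against 392. The highest and lowest of the chain start thus differed in direction.

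Chondroitin and dermatan sulfate enzymes had 13 of 16 genes above the minimum, 3 intervals above 1, 4 below and a median log2 ratio of -0.03. Dse, the epimerase that turns chondroitin into dermatan sulfate, was the lowest at 0.726 (0.682 to 0.772), with 1747 counts against 2484. Ust, a sulfotransferase that acts on uronic acid, was the highest at 1.46 (1.23 to 1.73). Keratan sulfate enzymes had 5 of 8 genes above the minimum and a median of -0.07, with Chst1, a keratan sulfate sulfotransferase, at 1.52 (1.20 to 1.94) and Chst2 at 0.877 (0.802 to 0.958). All 7 genes of sulfate activation and transport passed the minimum, 5 with intervals below 1 and 1 above, and their median was -0.16. Papss1, which makes the sulfate donor, was the highest at 1.17 (1.08 to 1.27), and Bpnt1, which clears a by-product of sulfation, the lowest at 0.821 (0.759 to 0.887). Over all genes tested, 28.6% of intervals lay below 1 and 26.3% above. At a mean of at least 50 CPM these shares were 41.9% and 30.1%.

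**Figure D5:**
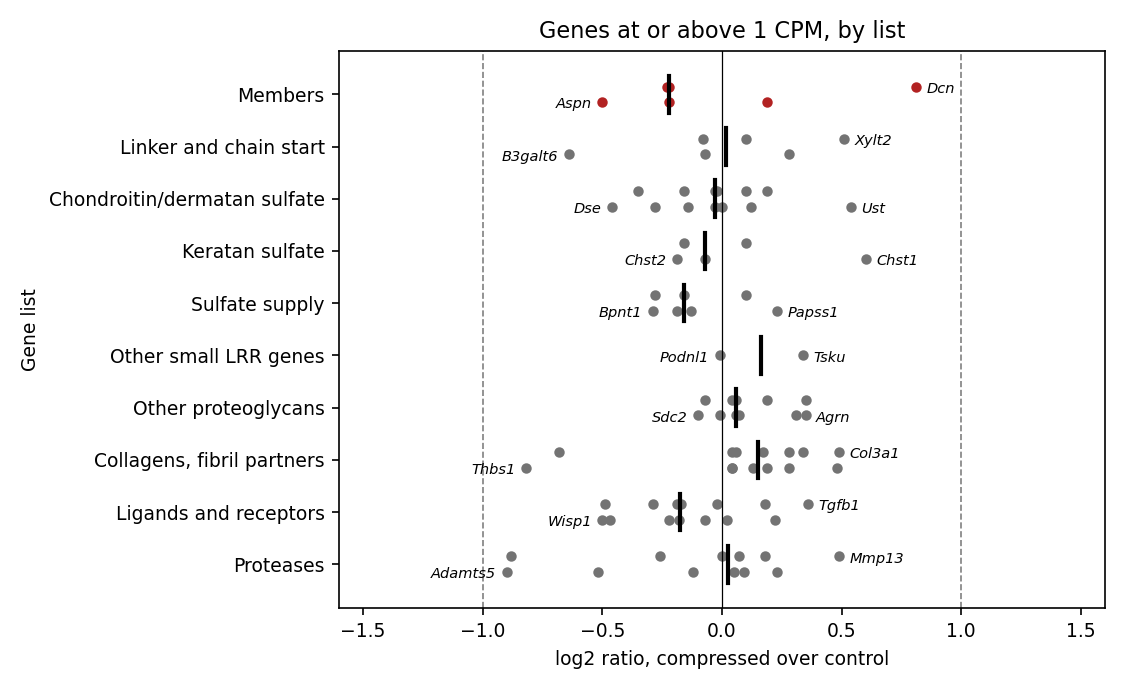
Log2 ratio, compressed over control, of genes with at least 1 CPM in either library, for the 10 proteoglycan genes (6 measurable) and the related lists, without the marker lists. Each point is a gene, the black bars are list medians, dashed lines mark a 2-fold difference, and the lowest and highest genes are named. No point reaches a dashed line. Of the genes drawn, Adamts5 lies lowest at -0.90 and Dcn highest at 0.81.

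Collagens and other fibril partners had 14 of 16 genes above the minimum and 0 called, and 11 intervals lay above 1 and 2 below. Over all genes tested those shares were 26.3% and 28.6%, and over the genes with a mean of at least 50 CPM they were 30.1% and 41.9%. Their median log2 ratio was 0.15. Some of the 11 were very close to 1, with Col1a1, Col1a2 and Col5a2 at 1.03 and Col12a1 at 1.04. At such depth the counting intervals are narrow. Col3a1, the type III collagen chain, had the highest ratio at 1.41 (1.25 to 1.59), and Thbs1, thrombospondin 1, the lowest at 0.566 (0.550 to 0.582).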

How the data were processed

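Total RNA of 1 compressed and 1 control OCCM-30 culture was sequenced. The authors deposited raw read counts per gene symbol with a gene type. The submitters' processing notes name HISAT2 (a spliced aligner) and GRCm38. How reads were counted, by which annotation and strand setting, and how reads with several alignments were treated was not stated in the labels or headers. From the deposited counts, TMM factors were computed with edgeR 4.0.16 in R 4.3.3, and CPM, ratios (prior count 0.5) and exact binomial and Poisson intervals with scipy 1.17.1. edgeR's quasi-likelihood test was not run, since 1 library per group leaves no residual degrees of freedom. The interval code was tested on simulated data. Pairs were compared by conditional odds ratios of raw counts.

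The 10 genes and all lists were chosen with earlier results of these data known. Named were all 10 genes, any called gene and the highest and lowest ratio of each list. Genes in or next to a run of members less than 1000000 bases apart were also named. Marker lists are instead given by their totals, the markers above the minimum and some markers at or near 0. Which markers to name was chosen after their values were seen. Gene positions and promoters are from RefSeq on GRCm38.p6, and 8 of the 10 genes had a promoter entry. Alternatives were total-count, upper-quartile and DESeq2 1.42.0 scaling, no CPM minimum and a minimum of 5, a prior count of 5, a fold limit of 1.5 and an interval widened for a coefficient of variation of 0.2.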

Additional observations from a re-analysis of the deposited data

How the results depend on the processing

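Under total-count, DESeq2 and upper-quartile scaling no sign or count changed, and the log2 ratio ranged from 0.79 to 0.82 for Dcn and from -0.24 to -0.21 for Ogn. With a fold limit of 1.5, the members called higher became 1 (Dcn). The share of all genes called at that limit was not computed, so this count has no background to be read against. At a CPM minimum of 5, where 2 genes remain, the members with an interval above 1 became 0, since Dcn is no longer tested. With intervals widened for an assumed coefficient of variation of 0.2 between cultures, 0 members had an interval above 1 and 0 below it, so Dcn and Ogn both lost their separation from 1. Leaving out Ogn, an alternative added after the data were seen, left 0 members with an interval below 1 and a log2 ratio of 0.05 for the summed counts, against -0.19 with Ogn. Of 103 alternative values over 9 alternatives, 97 kept their value within the interval or count of the main analysis. Many of these could not move. A changed fold limit or CPM minimum, wider intervals and leaving out Ogn do not alter the ratios of the genes that remain. That share therefore does not measure how robust the results are. No paired analysis was possible because each group has 1 library and the labels give no replicate numbers. Depth limits Prelp, Ecm2, Lum and Kera, whose counts of at most 11 cannot show a 2-fold difference.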

Other observations

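Growth factors and receptors reported to bind these proteoglycans had 14 of 20 genes above the minimum and 0 called, with 8 intervals below 1, 3 above and a median log2 ratio of -0.18. Tgfb1, a ligand that decorin binds, was the highest at 1.29 (1.22 to 1.35). Wisp1, a matricellular protein that binds decorin and biglycan, was the lowest at 0.706 (0.683 to 0.730). Kdr and Erbb4, receptor genes, and Tnf and Mstn, ligand genes, had 0 counts in both libraries. As background for this and the lists below, 28.6% of intervals over all genes tested lay below 1 and 26.3% above. At a mean of at least 50 CPM these shares were 41.9% and 30.1%.

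Proteases reported to cut these proteoglycans had 12 of 15 genes above the minimum and 0 called, with 3 intervals above 1, 2 below and a median log2 ratio of 0.02. Adamts5, an aggrecanase, was the lowest at 0.536 (0.517 to 0.556), with 4525 counts against 8704. Mmp13, a collagenase, was the highest at 1.40, with an interval of 0.989 to 2.01 that included 1. Other proteoglycan core proteins had 11 of 23 genes above the minimum and 0 called, with 5 intervals above 1 and 1 below. Agrn, agrin of basement membranes, and Cspg4, a membrane chondroitin sulfate proteoglycan, were the highest, both at 1.27, and Sdc2, syndecan 2, was the lowest at 0.935 (0.895 to 0.977).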
